A study of Canis lupus familiaris with 186 samples.

Results

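The Iroquois homeobox genes of the dog, IRX1, IRX2, IRX3, IRX4, IRX5 and IRX6, were examined in 186 primary osteosarcomas of the DOG2 dataset. They were taken by symbol and make up 6 of the 37952 genes for which counts were deposited. Each symbol matched 1 row. RNA-seq libraries came from the tumors of dogs enrolled in the trials COTC021 (93 dogs) and COTC022 (93 dogs), with 1 library per dog. All dogs had appendicular osteosarcoma without macroscopic metastasis and underwent amputation, and the tumors were taken before any drug treatment. After surgery the dogs were randomized to carboplatin with or without rapamycin, and the labels do not state how these arms correspond to the trials. Age is not given for each dog in the labels, and no normal bone was included.

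Iroquois proteins are transcription factors of the TALE class, whose homeodomain carries a short loop extension. Vertebrate genomes hold them in paired clusters, with Irx1, Irx2 and Irx4 in one and Irx3, Irx5 and Irx6 in the other, and the genes of a cluster share long-range enhancers. In the embryo they pattern the neural tube, heart, limb and skeleton. IRX3 and IRX5 act in the early limb bud, IRX4 is best known from the cardiac ventricle, and IRX1 has been studied in human osteosarcoma together with the chemokine CXCL14 and NF-kB signaling.

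The canine genes lay in the same arrangement on the GSD_1.0 build used for the counts. On chromosome 34, IRX1 (chr34:9682784-9688233), IRX2 (chr34:10371265-10376323) and IRX4 (chr34:11068071-11072857) spanned 1.39 Mb. The next protein-coding gene after them was NDUFS6, which encodes a subunit of mitochondrial complex I. On chromosome 2, IRX6 (chr2:59900508-59905979), IRX5 (chr2:60245608-60248977) and IRX3 (chr2:60825325-60828040) spanned 0.93 Mb. This cluster lay between the matrix metalloproteinase gene MMP2 and FTO, which encodes an RNA demethylase. Uncharacterized genes lay within both clusters, and the lncRNA LOC119867475 overlapped IRX2. Whether reads were counted by strand is not given in the sources used here. Reads of IRX2 and of this lncRNA therefore cannot be told apart where the genes overlap, at chr34:10371265-10372139.

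Library totals ranged from 6587634 to 27420867 counts, with a median of 10797170, and no libraries held identical values. The deposited library names differ in the separator before their last word, by which the libraries were split into a pair of sets. One set holds 50 libraries with a median total of 19440456 counts, and the other 136 libraries with a median of 9851682. They are called the deeper and the shallower set by their medians, although the library with the highest total is in the shallower set. The last word of a name begins with a capital or a small letter. Both spellings occur in the shallower set and were pooled there. Of the deeper set, 18 came from COTC021 and 32 from COTC022. Values within each trial and each set are therefore given for the members, while gene lists were refitted with the set as covariate only. The osteoblast regulator RUNX2 had counts in all 186 tumors, and its target SP7 in 185. Summed over 12 osteoblast markers, the level ranged from 1407 to 232777 CPM (TMM-normalized counts scaled to a common library size), and over 13 leukocyte markers from 271 to 20394 CPM. The B cell marker MS4A1 had 0 counts in 117 tumors, whereas the other leukocyte markers had counts in all. A tumor of COTC022, in the deeper set, stood apart, with the highest leukocyte sum and the lowest osteoblast sum. It had 1 count of SP7 and 11 counts of the alkaline phosphatase gene ALPL, although RUNX2 reached 1997 counts. Its counts of IRX1 to IRX6 were 0, 1, 5, 0, 0 and 0. Except for IRX4, the slopes of members on IRX1 and on the GS-1 score, described below, were also fitted without it. Refits of the gene lists, without it or in other settings, were made for IRX1, IRX3 and the score only. Some of these counts are given.

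To determine which Iroquois genes were expressed, the level of each was described across tumors. Levels are not compared between genes because transcript lengths were not used. A count of 0 allows a level of up to 0.109 CPM in the deepest library and 0.455 CPM in the shallowest, taking 3 counts as the limit and covering counting error only.

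IRX3 ranged from 0.332 to 68.0 CPM with a median of 16.0 CPM (n = 186) and had counts in every tumor. It reached 1 CPM in 185 tumors. The exception was the tumor described above. IRX5 ranged from 0 to 46.1 CPM with a median of 6.07 CPM, and reached 1 CPM in 181 tumors (97.3%). Only 1 tumor, the same one, had 0 counts of IRX5.

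IRX1 varied more. It ranged from 0 to 39.2 CPM with a median of 4.81 CPM, and its lower and upper quartiles were 1.11 and 9.94 CPM. It reached 1 CPM in 145 tumors (78.0%), while 10 tumors had 0 counts. IRX2 ranged from 0 to 16.2 CPM with a median of 1.18 CPM. It reached 1 CPM in 99 tumors (53.2%), and 18 tumors had 0 counts. The SD of log2 CPM across tumors was 2.04 for IRX1 and 1.63 for IRX2, against 1.07 for IRX3 and 1.11 for IRX5.

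IRX6 was low in most tumors and high in a few. Its median was 0.258 CPM, its upper quartile 0.927 CPM and its highest level 13.6 CPM. It reached 1 CPM in 42 tumors (22.6%), and 41 tumors had 0 counts. IRX4 was hardly detected. All its 74 counts fell in 15 tumors, and 171 tumors had 0 counts. A pair of COTC021 tumors held 28 and 20 of these counts, and the other tumors held at most 4 each.

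**Figure D1:**
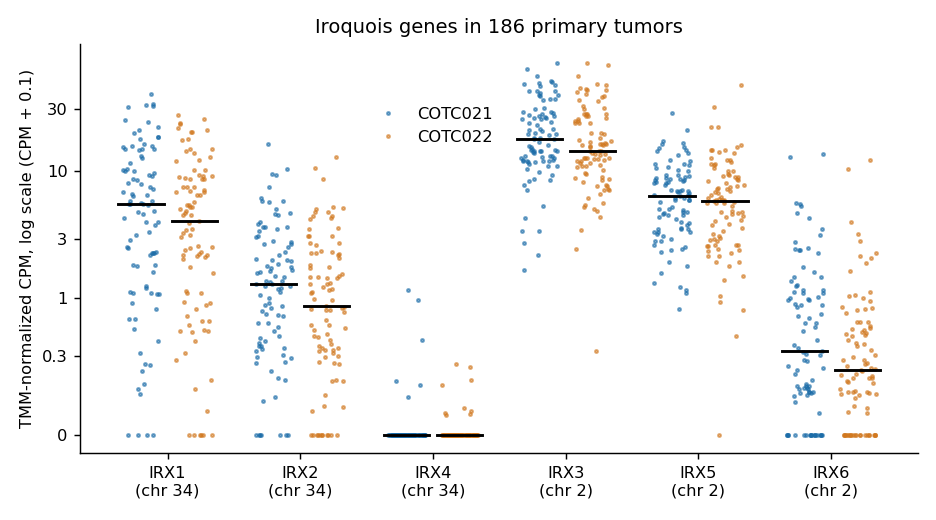
Level of each Iroquois gene in 186 primary tumors, as TMM-normalized CPM on a log scale of CPM + 0.1, by trial. Each point is a tumor and each bar the median of 93 tumors. IRX3 and IRX5 were present in nearly all tumors, IRX1 and IRX2 spread down to 0, and IRX4 lay at 0 in 171 tumors.

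Counting the members at 1 CPM or more in each tumor, 74 tumors had 4 of them and 54 had 3. A further 27 tumors had 5, 25 had 2, 4 had 1 and 1 had none. A single tumor had all 6. Since IRX3 and IRX5 reached 1 CPM in 185 and 181 tumors, little room was left for other members without them. Every tumor with IRX1, IRX2 or IRX6 at 1 CPM or more also had IRX3 and IRX5 at that level. Of the 145 tumors with IRX1, 94 also had IRX2, whereas 5 tumors had IRX2 without IRX1. IRX6 was at that level in 7 tumors without IRX1 and in 13 without IRX2.

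To compare the paralogs with IRX1, log2 CPM values were correlated for all 15 pairs of members across the 186 tumors. The strongest pairs were neighbors within a cluster. IRX1 and IRX2 had Pearson's r = 0.64 and Spearman's rho = 0.67, and IRX3 and IRX5 had r = 0.81 and rho = 0.76. For both, the permutation test gave p = 1e-05, the smallest that 100000 resamples can give (adjusted p = 5e-05 over the 15 pairs). For IRX1 and IRX2, rho was 0.69 in COTC021 and 0.65 in COTC022, and 0.64 and 0.68 in the deeper and the shallower set. For IRX3 and IRX5 it was 0.69 and 0.80 in the trials, and 0.80 and 0.74 in the sets. Without the 2 tumors farthest from the median of the first gene, r was 0.64 for IRX1 and IRX2 and 0.77 for IRX3 and IRX5.

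No pair between the clusters reached these values. IRX5 and IRX6, of the same cluster, had rho = 0.36. The remaining pairs within a cluster had rho from 0.20 to 0.27. This was above the pairs between clusters that did not include IRX6 (0.07 to 0.15), but similar to IRX6 with the chromosome 34 genes (0.26 to 0.27). IRX4 had rho = 0.20 with IRX1 and 0.27 with IRX2 within its cluster, and 0.27 with IRX6 of the other. IRX1 had rho = 0.15 with IRX3 (r = 0.22, permutation p = 0.0468 for rho, adjusted p = 0.0585) and rho = 0.13 with IRX5 (r = 0.20, p = 0.0704, adjusted p = 0.0812). IRX2 and IRX3 had rho = 0.07 (r = 0.10, p = 0.363 and 0.363 adjusted). IRX6 was correlated with all other members over the 186 tumors, with rho from 0.24 with IRX3 to 0.36 with IRX5, but within COTC021 the correlation passed the test with IRX5 only. For IRX6 with IRX5, rho was 0.28 in COTC021 and 0.45 in COTC022. With IRX1, IRX6 had rho = 0.26 (r = 0.24, permutation p = 0.00033, adjusted p = 0.000707), but within COTC021 rho was 0.11 (permutation test, adjusted p = 0.39). There it was 0.11 with IRX2 (adjusted p = 0.39), 0.13 with IRX3 (adjusted p = 0.373) and 0.17 with IRX4 (adjusted p = 0.231).

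**Figure D2:**
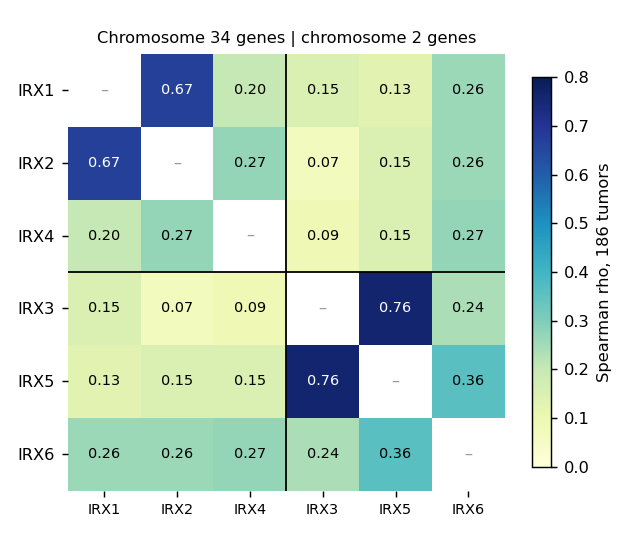
Spearman's rho of log2 CPM between each pair of Iroquois genes across 186 tumors. Black lines separate the chromosome 34 genes from the chromosome 2 genes. The dark cells are IRX1 with IRX2 (0.67) and IRX3 with IRX5 (0.76), and the cells between the clusters lie between 0.07 and 0.27.

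Individual tumors showed the same separation. The 5 tumors with the highest IRX1 all came from COTC021, at 39.2, 33.1, 32.4, 31.8 and 31.4 CPM. In the same order, IRX2 was at 9.4, 16.2, 5.89, 1.0 and 2.83 CPM, and IRX3 at 30.3, 20.3, 9.35, 18.1 and 25.7 CPM. High IRX1 was thus found with IRX2 near its median as well as with IRX2 at its maximum. The 5 tumors with the highest IRX3 had 68.0, 67.7, 65.0, 60.5 and 53.6 CPM, and their IRX1 was at 27.1, 1.87, 0, 2.37 and 4.95 CPM. IRX5 in these tumors was at 31.1, 20.8, 46.1, 9.1 and 14.5 CPM, all above the median of IRX5.

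The 19 tumors with the highest IRX1 shared 10 with the 19 highest for IRX2, but 2 with those of IRX3 and 3 with those of IRX5. The highest 19 for IRX3 and for IRX5 shared 11. IRX1 and IRX2 nevertheless came apart in some tumors. Of the 90 tumors with IRX1 at 5 CPM or more, 6 had 0 counts of IRX2, and IRX1 reached 20.1 CPM in a tumor without IRX2 counts. Of the 16 tumors with IRX2 at 5 CPM or more, 0 lacked IRX1. Over the 101 tumors with at least 10 counts of both, the SD of the log2 ratio of IRX1 to IRX2 was 1.05. The log2 ratio of IRX3 to IRX5 had an SD of 0.68 over 181 tumors.

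**Figure D3:**
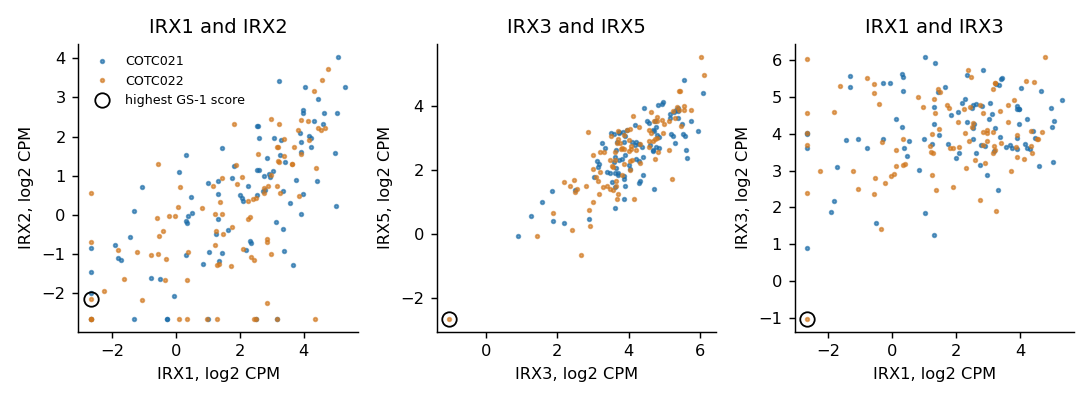
Log2 CPM (prior count 2) of IRX2 against IRX1, IRX5 against IRX3 and IRX3 against IRX1, with a point for each of 186 tumors colored by trial. The ring marks the tumor with the highest GS-1 score. IRX3 and IRX5 form a narrow band (r = 0.81), IRX1 and IRX2 a wider one with tumors at the lower edge for IRX2 (r = 0.64), and IRX1 and IRX3 form no band (r = 0.22).

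The paralogs were then tested against IRX1 in a fit of all genes, with the trial as covariate. Per 1 SD of IRX1 (2.04 on the log2 scale), IRX2 was higher by log2 1.28 with SE 0.13 and a 95% confidence interval from 1.02 to 1.54 (limma-voom, adjusted p = 2.23e-14). Of 13421 genes tested, 22.8% were higher and 22.7% lower with IRX1 at an adjusted p under 0.05, so that a call on its own is common in this fit. Among these 13421 genes, however, IRX2 ranked 1 by rho with IRX1, and IRX1 ranked 1 with IRX2. IRX3 ranked 3611 and IRX5 ranked 3859 with IRX1. For IRX3 and IRX5 the ranks were also mutual, each being at rank 1 with the other.

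IRX3 was higher by log2 0.22 per SD of IRX1 (SE 0.08, interval 0.07 to 0.38, limma-voom adjusted p = 0.016), and IRX5 by 0.24 (SE 0.09, interval 0.07 to 0.41, adjusted p = 0.0167). These calls were lost without the tumor that stood apart, where the slopes were 0.16 for both (limma-voom adjusted p = 0.0676 and 0.0956). They were also lost with edgeR, where IRX3 had a slope of 0.08 (adjusted p = 0.405) and IRX5 of 0.04 (adjusted p = 0.693), and within each trial and each set of libraries. The slope of IRX2 was 1.28 without that tumor, 1.31 in COTC021, 1.25 in COTC022, 1.01 in the deeper set and 1.47 in the shallower set.

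IRX6, which had too few counts for the filter of the study, was tested with edgeR's quasi-likelihood test on genes with at least 10 counts in at least 19 libraries. It was higher by log2 0.64 per SD of IRX1 (SE 0.16, interval 0.32 to 0.96, edgeR adjusted p = 0.000586), and 22.1% of the 16273 genes in that fit were called higher. Its slope was 0.90 in the deeper set and 0.52 in the shallower set, both called. It was 0.25 in COTC021 (edgeR adjusted p = 0.486) and 0.96 in COTC022 (adjusted p = 0.000302). The difference of the slopes was 0.72 (SE 0.31, interval 0.10 to 1.33) and was not called (edgeR adjusted p = 0.44). For IRX4, tested on all genes with a count, the slope was 0.24 (edgeR adjusted p = 0.848). With IRX3 in place of IRX1, IRX5 was higher by 0.92 per SD (SE 0.06, limma-voom adjusted p = 6.12e-34). IRX1, IRX2 and IRX6 then had slopes of 0.23, 0.14 and 0.20, with 95% confidence intervals of -0.12 to 0.59, -0.16 to 0.44 and -0.17 to 0.57, and none was called (limma-voom or edgeR, adjusted p = 0.318, 0.5 and 0.423).

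Genes beside the clusters were compared in the same way, as a description. NDUFS6 had rho = 0.43 with IRX1 and 0.30 with IRX2. FTO had rho = 0.39 with IRX3 and 0.45 with IRX5, and MMP2 had -0.17 and 0.07. Within the clusters, LOC119867475 had rho = 0.74 with IRX2, which it overlaps, and 0.57 with IRX1. LOC111092789, a protein-coding gene that begins just after IRX5, had rho = 0.70 with IRX5 and 0.62 with IRX3.

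Outside the family, the named genes with the highest rho differed from member to member, within a cluster as well as between the clusters. For IRX1 these were ZCCHC3 (0.63), NOP56 (0.59) and SNRPB (0.59). NOP56 is a core protein of box C/D snoRNPs, SNRPB a core protein of spliceosomal snRNPs and ZCCHC3 a zinc finger protein that binds nucleic acids. All of them lie on chromosome 24, between positions 19014775 and 21046051. IRX2 was followed by FADS6 (0.48), a fatty acid desaturase family gene, the homeobox gene BARX1 (0.47) and the neuronal gene DPYSL5 (0.45). FADS6, BARX1 and DPYSL5 belong to a signature that the paper found by clustering these same tumors and that also holds IRX1. Their correlations with IRX2, the neighbor of IRX1, are therefore not independent of that earlier result.

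For IRX3 the genes were ASPSCR1 (0.61), MYO6 (0.61), which encodes an unconventional myosin, and RPGRIP1L (0.58), a gene of the primary cilium that lies next to FTO on chromosome 2. For IRX5 they were DLX5 (0.58) and DLX6 (0.56), neighboring homeobox genes of osteoblast differentiation, and RHBDL2 (0.57), a rhomboid protease. IRX6 was followed by PTCH1 (0.50), the receptor and a transcriptional target of hedgehog signaling, by EFNB3 (0.46), an ephrin, and by GLI2 (0.46), a transcription factor of the same pathway. IRX4 had rho = 0.34 with the osteocyte gene SOST and 0.33 with NPAS3, in tumors of which 171 were tied at 0 counts.

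Gene lists related to the family, to bone and to other cells of the tumor were then counted in the fits by each member. By IRX1, 18 of 19 tested homeobox genes of limb and skeleton were higher and 0 lower, with a median log2 slope of 0.60, against -0.00 over all genes. LHX2, a LIM homeobox gene of the limb bud, rose by 0.78 (limma-voom adjusted p = 2.88e-09), BARX1 by 1.46 (adjusted p = 1.66e-08), DLX6 by 0.74 (adjusted p = 1.88e-08) and DLX4 by 0.69 (adjusted p = 7.79e-08). The gene that was not called was PRRX1, a marker of limb mesenchyme, at -0.14 (limma-voom adjusted p = 0.0693), named after its value was seen. With edgeR, 15 of the 19 were higher and the median slope was 0.29. Without the tumor that stood apart, 17 were higher and 1 lower, and with the GS-1 score as covariate, 15 were higher and 1 lower. With the set of libraries as covariate, 18 were higher. In the paper, a clustering of genes and tumors in these same data placed IRX1 in a signature with LHX2, BARX1 and DLX1. Their slopes here are therefore not independent of that earlier result.

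Of other TALE genes, 2 of 9 were higher with IRX1, a share close to the 22.8% of all genes. They included TGIF2, a transcriptional repressor, by 0.21 (limma-voom adjusted p = 2.04e-08). All 10 cell cycle genes tested were higher, with a median slope of 0.33, among them the replication helicase subunit MCM2 (0.39) and the mitotic kinase AURKB (0.36). All 10 were also higher with the GS-1 score as covariate.

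Of 15 genes of CXCL14 and NF-kB signaling, 13 were lower with IRX1 and 0 higher, with a median slope of -0.17. The kinase gene IKBKB was at -0.23 (limma-voom adjusted p = 4.35e-07), and NFKB1, which encodes a subunit of NF-kB, was at -0.18. CXCL14 itself was at -0.59 (limma-voom adjusted p = 0.000414), named for its list after its value was seen. Leukocyte markers moved the same way, since 10 of 12 tested were lower with IRX1, with a median of -0.33. PTPRC, the common leukocyte antigen CD45, was at -0.35 and the macrophage receptor gene CSF1R at -0.34. With the GS-1 score as covariate, 9 of the 15 NF-kB genes and 1 of the 12 leukocyte markers were lower, and 2 leukocyte markers were higher. In bulk tumors, fewer cells of a type and less RNA per cell cannot be told apart.

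Among bone genes, 5 of 11 osteoblast markers were higher with IRX1, including ALPL (0.77), SP7 (0.60), the osteocyte gene SOST (1.20) and RUNX2 (0.23). Of 15 cartilage markers, 8 were higher, including the growth plate receptor gene FGFR3 (0.82), the hedgehog ligand gene IHH (1.36), COL9A2 (0.71) and COL11A2 (0.69). With edgeR, 5 of the 15 were higher, and 4 with the GS-1 score as covariate. FGFR3, IHH, COL11A2 and COL2A1 belong to the same signature of the paper as IRX1, found in these same tumors. Of 7 endothelial markers, 4 were lower, namely TEK (-0.35), KDR (-0.23), PECAM1 (-0.25) and VWF (-0.24). Of 3 adipocyte markers tested, 1 was lower, and the single epithelial marker tested was not called. None of 10 skeletal muscle markers was called by limma-voom, but all 10 were called lower by edgeR. The muscle sum ranged from 3.75 to 106301 CPM across tumors, and its part in the edgeR calls was not tested.

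**Figure D4:**
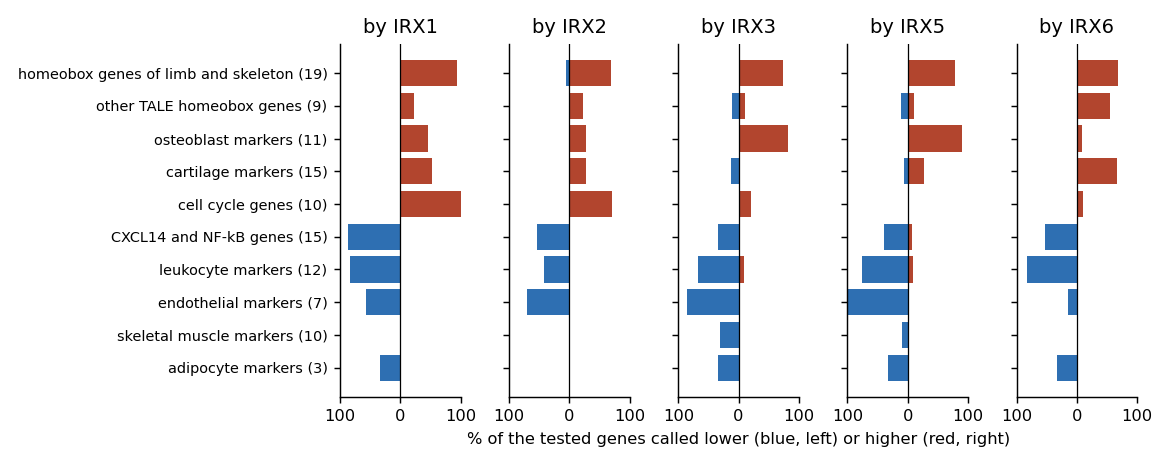
Percent of the tested genes of each list called lower (blue, to the left) or higher (red, to the right) at a limma-voom adjusted p under 0.05 in the fits by IRX1, IRX2, IRX3, IRX5 and IRX6, with the number of tested genes in parentheses. All cell cycle genes were higher with IRX1 and none with IRX5, osteoblast markers were mostly higher with IRX3 and IRX5, and cartilage markers with IRX6.

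The other members had partly different counts in these lists. The fits share the same tumors and were not tested against each other. By IRX2, where 12.7% of all genes were higher and 11.4% lower, 13 homeobox genes were higher and 1 lower, 7 of 10 cell cycle genes were higher, and 3 osteoblast and 4 cartilage markers were higher. BARX1 had a slope of 1.50 (limma-voom adjusted p = 2.78e-09). Leukocyte markers were lower for 5 of 12, and NF-kB genes for 8 of 15.

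By IRX3, 18.6% of all genes were higher and 20.7% lower. Osteoblast markers were higher for 9 of 11, with a median slope of 0.56. ALPL rose by 1.12 (limma-voom adjusted p = 3.58e-13), RUNX2 by 0.37 (adjusted p = 4.07e-10) and SP7 by 0.64 (adjusted p = 3.77e-08). With edgeR, 6 of the 11 osteoblast markers were higher and 1 lower, with a median slope of 0.37. Without the tumor that stood apart, 8 were higher and 1 lower, and the same counts held with the GS-1 score as covariate. Homeobox genes were higher for 14 of 19, including DLX5 by 0.69 (limma-voom adjusted p = 1.23e-15), but BARX1 was at -0.04 (adjusted p = 0.911). Without the tumor that stood apart, 10 of the 19 were higher and 2 lower. Of 10 cell cycle genes, 2 were higher, and of 15 cartilage markers, 2 were lower. The cartilage count was 4 without the tumor that stood apart and 7 with the GS-1 score as covariate. Endothelial markers were lower for 6 of 7, with the von Willebrand factor gene VWF at -0.83 (limma-voom adjusted p = 6.57e-16). Leukocyte markers were lower for 8 of 12 and higher for 1. With the GS-1 score as covariate, 0 of them were lower and 5 higher.

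IRX5 gave similar counts to IRX3, with 16.5% of all genes higher and 17.5% lower. Osteoblast markers were higher for 10 of 11, with a median slope of 0.68, homeobox genes for 15 of 19, and endothelial markers were lower for all 7. Unlike with IRX3, IHH was called, at 1.17 (limma-voom adjusted p = 8.65e-07), and 4 cartilage markers were higher and 1 lower. None of the 10 cell cycle genes was called, and their median slope was 0.00. The counts by IRX5 were not refitted without the tumor that stood apart, which had 0 counts of IRX5.

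By IRX6, 10.6% of all genes were higher and 10.7% lower. Cartilage markers were higher for 10 of 15, with a median slope of 0.54, among them IHH at 1.12 (limma-voom adjusted p = 4.93e-08) and COL11A2 at 0.78 (adjusted p = 0.000173). Osteoblast markers were higher for 1 of 11, and ALPL was at 0.32 (limma-voom adjusted p = 0.111). Homeobox genes were higher for 13 of 19 and other TALE genes for 5 of 9. Leukocyte markers were lower for 10 of 12. By IRX4, 0.231% of all genes were higher, and of the lists only 1 osteoblast marker was called.

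GS-1 is a gene signature from an earlier study of canine osteosarcoma, and many of its genes are expressed by leukocytes. To test the Iroquois genes against it, 27 of its genes, those left by the low-count filter, were combined into a score, the mean z-score per tumor, which ranged from -1.28 to 3.57. The highest value belonged to the tumor that stood apart, and the next was 2.72. All 12 leukocyte markers tested were higher with the score, which its choice of genes largely fixed in advance. So it did for the loss of leukocyte calls in the fits with the score as covariate. No tumor was placed in a group by it, and survival was not analysed here.

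IRX1, IRX3, IRX5 and IRX6 were lower at a higher score. The slope per 1 SD of the score was -0.73 for IRX1 (SE 0.20, 95% confidence interval -1.12 to -0.35, limma-voom adjusted p = 0.00102) and -0.35 for IRX3 (SE 0.08, -0.50 to -0.20, adjusted p = 7.26e-05). It was -0.43 for IRX5 (SE 0.09, -0.60 to -0.26, limma-voom adjusted p = 1.04e-05) and -0.81 for IRX6 (SE 0.17, -1.14 to -0.48, edgeR adjusted p = 2.2e-05). These calls stand against 26.2% of 13422 genes called lower and 22.3% called higher in the limma-voom fit, and 26.9% called lower in the fit with IRX6. Without the tumor that stood apart, the slopes were -0.68, -0.29, -0.35 and -0.80, and all remained called (limma-voom or edgeR, adjusted p = 0.00266, 0.00145, 0.000282 and 5.71e-05).

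For IRX2 the slope was -0.29 (SE 0.16, interval -0.60 to 0.02, limma-voom adjusted p = 0.124). With edgeR it was -0.54 (adjusted p = 0.000238) and with DESeq2 -0.53 (adjusted p = 9.36e-05), so that the call for IRX2 depended on the tool. IRX4 had a slope of -0.73 (edgeR adjusted p = 5.72e-06), in a fit of all genes with a count where 20.5% were called lower. It was -0.45 without the tumor with the most IRX4 counts (edgeR adjusted p = 0.0229), and -0.49 without both tumors with 10 or more counts (adjusted p = 0.000967), which leaves 26 counts.

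Within single trials or sets of libraries, some of these calls were lost. By trial, the slopes of IRX1 were -0.67 in COTC021 and -0.78 in COTC022, and those of IRX3 were -0.31 and -0.37. For IRX5 they were -0.35 and -0.47, and for IRX6 -0.62 and -1.02. In COTC021, IRX1 (limma-voom adjusted p = 0.0647) and IRX6 (edgeR adjusted p = 0.0553) were not called. The interaction of trial and score was not called for any of these members (limma-voom or edgeR, adjusted p = 0.954 for IRX6 and 1 for the others). By set of libraries, the slopes were -0.93 in the deeper and -0.60 in the shallower set for IRX1, -0.53 and -0.22 for IRX3, -0.62 and -0.29 for IRX5, and -1.17 and -0.75 for IRX6. The deeper set and COTC022 hold the tumor that stood apart, and the slopes within them were not refitted without it. IRX1 was not called in the deeper set (limma-voom adjusted p = 0.0668), nor IRX3 in the shallower set (adjusted p = 0.0502).

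Other homeobox genes moved in the same direction. With the score, 17 of 19 homeobox genes of limb and skeleton were lower, with a median slope of -0.60, against -0.02 over all genes. DLX5 was at -0.60 (limma-voom adjusted p = 1.03e-10). Osteoblast markers were lower for 7 of 11 and higher for 1, cartilage markers lower for 10 of 15, and all 10 cell cycle genes were lower. NF-kB genes were higher for 13 of 15, and endothelial markers for 6 of 7, or 4 of 7 without the tumor that stood apart. The part of these cells in the slopes of the Iroquois genes was not tested.

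**Figure D5:**
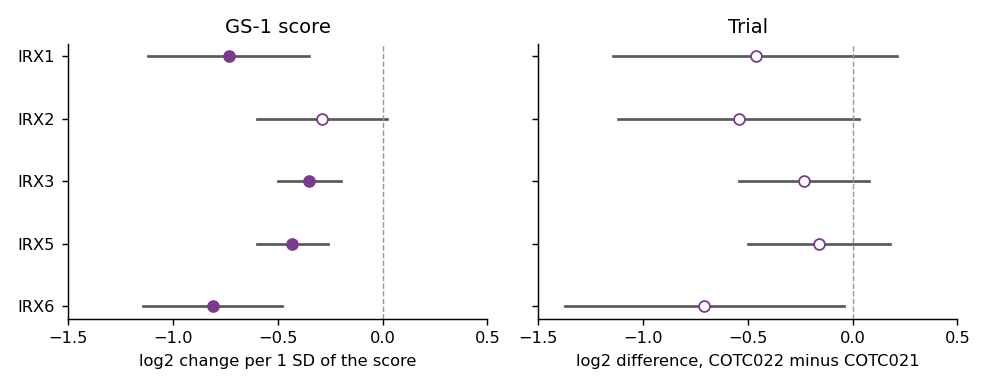
Log2 slope per 1 SD of the GS-1 score (left) and log2 difference of COTC022 minus COTC021 (right) for each Iroquois gene but IRX4, with 95% confidence intervals over 186 tumors. Filled points passed an adjusted p of 0.05 (limma-voom, and edgeR for IRX6). All slopes on the score are below 0, with IRX2 not called, and no difference between the trials was called.

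Finally, the trials were compared. IRX1 had a median of 5.59 CPM in COTC021 and 4.12 CPM in COTC022 (n = 93 each), with highest values of 39.2 and 27.1 CPM. IRX2 had medians of 1.3 and 0.857 CPM, IRX3 of 17.8 and 14.5 CPM, IRX5 of 6.42 and 5.97 CPM, and IRX6 of 0.337 and 0.211 CPM. The summed osteoblast markers had medians of 48757 and 49137 CPM and the leukocyte markers of 1930 and 1986 CPM in COTC021 and COTC022. The medians of the Iroquois genes were lower in COTC022, but the tumors of both trials overlapped in each of these genes, and so did their ranges between the quartiles. At the top, the highest IRX5 was 27.8 CPM in COTC021 and 46.1 CPM in COTC022.

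The log2 difference of COTC022 minus COTC021 was -0.46 for IRX1 (SE 0.34, interval -1.14 to 0.21, limma-voom adjusted p = 0.704) and -0.54 for IRX2 (SE 0.30, -1.12 to 0.03, adjusted p = 0.542). It was -0.23 for IRX3 (SE 0.16, -0.54 to 0.08, limma-voom adjusted p = 0.674) and -0.16 for IRX5 (SE 0.17, -0.50 to 0.18, adjusted p = 0.82). For IRX6, which reached 1 CPM in 29 tumors of COTC021 and 13 of COTC022, it was -0.71 (SE 0.34, -1.37 to -0.04, edgeR p = 0.0379, adjusted p = 0.325). None of these was called. In the deeper and the shallower set, the difference was -0.98 and -0.17 for IRX1, -0.44 and -0.58 for IRX2, -0.37 and -0.12 for IRX3, -0.33 and -0.01 for IRX5, and -0.13 and -0.91 for IRX6, none of them called. The limma-voom fit called 2 of 13422 genes (0.0149%), edgeR called 129 and DESeq2 called 91, and 1332 genes had an unadjusted limma-voom p under 0.05. None of the genes called by limma-voom was in the lists. The intervals do not exclude differences of up to log2 1 in IRX1, IRX2 and IRX6.

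IRX4 was called lower in COTC022, at -1.06 (edgeR adjusted p = 0.0188), in a fit of all genes with a count where 4.66% were called. The call rested on the tumors with 28 and 20 counts, both of COTC021. Without the first, the difference was -0.51 (edgeR adjusted p = 0.335), and without both it was 0.22 (adjusted p = 0.578).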

How the data were processed

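RNA-seq libraries (TruSeq Stranded mRNA) of 186 canine osteosarcomas were analysed. The authors aligned reads with STAR 2.7.0f to build GSD_1.0 and quantified genes with RSEM 1.3.1, and the deposited values are expected counts per gene without normalization. Reads shared by several genes are split between them, so 3.07% of values held a fraction, and all were rounded. Of 198 columns, 12 matched no sample and were not used here. Groups are the trials given in the labels, and the deeper and shallower sets come from the separator in the deposited library names. Replicates are separate dogs.

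The low-count filter of edgeR 4.0.16 (filterByExpr, with 10 as least count, 0.5 as least proportion and 5 as large sample size) left 13422 genes with IRX1, IRX2, IRX3 and IRX5, and TMM factors were computed. Fits used limma-voom (limma 3.58.1, R 4.3.3) with Benjamini-Hochberg adjustment over all genes. IRX6 (at least 10 counts in at least 19 libraries, 16274 genes) and IRX4 (30014 genes with a count) failed the filter and were tested with edgeR's quasi-likelihood test. The 95% confidence intervals come from the SE, which for edgeR was derived from the F statistic. DESeq2 1.42.0 was an alternative. The GS-1 score is the mean z-score of quantile-normalized log2(CPM + 2) over its genes. Correlations used log2 CPM with a prior count of 2 and two-sided permutation tests with 100000 resamples. The fits were tested on simulated data.

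Named genes are the members, the 3 genes of highest rho with each member (LOC names left out), up to 4 genes of each list with the smallest p in the fit by IRX1, and the genes next to each cluster. Members and lists were chosen with earlier results of these data known. Positions come from RefSeq (GSD_1.0). CPM per kilobase was not computed, and no sequences were used. Depth limits genes near 0 counts. A few genes that these rules name are not reported here.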

Additional observations from a re-analysis of the deposited data

How the results depend on the processing

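The slopes of IRX1, IRX3, IRX5 and IRX6 on the GS-1 score were below 0 under every alternative run. Of 56 alternative values for the score, 50 kept direction and call. So did 42 of 46 for the trial, 28 of 43 for the slope on IRX1 and 96 of 105 correlations. Counts of genes have no direction or call and were judged by a limit on their ratio to the main value. Within it lay 25 of 27 and 28 of 34 counts of listed genes called higher and lower, and 22 of 31 numbers of genes called. The limit is wide, since 4611 genes called with the score in the shallower set passed it against 6507. The 6 medians from library totals differed from the main medians by less than the SD across tumors.

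On the GS-1 score, the calls were lost for IRX1 in the deeper set of libraries (-0.93) and COTC021 (-0.67). They were also lost for IRX3 in the shallower set (-0.22) and for IRX6 in COTC021 (-0.62). All of these fits had fewer samples than the main fit, and the part of that in the lost calls was not tested. IRX2 was called with edgeR (-0.54) and DESeq2 (-0.53). On IRX1, IRX3 and IRX5 lost their calls with edgeR (0.08 and 0.04), with the GS-1 score as covariate (0.10 and 0.08), without the tumor with the highest score (0.16 for both), in the shallower (0.16 and 0.15) and the deeper set (0.31 and 0.38), in COTC021 (0.19 and 0.24) and in COTC022 (0.25 and 0.24), and IRX6 in COTC021 (0.25). Between the trials, IRX4 lost its call without its top tumor (-0.51) and turned to 0.22 without both, and IRX5, not called, turned with edgeR (0.03) and DESeq2 (0.02). Correlations no longer called in COTC021 were those of IRX1 with IRX4 (rho 0.11) and IRX6 (0.11), IRX2 with IRX4 (0.20) and IRX6 (0.11), and IRX6 with IRX3 (0.13) and IRX4 (0.17). In the deeper set they were IRX1 with IRX4 (0.16) and IRX6 (0.30), and in the shallower set IRX3 with IRX6 (0.18). The cause of changes with the tool was not tested.

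The score fit called 6507 genes, against 3285 in the deeper set and 3434 in COTC021. The fit by IRX1 called 6109, against 2200 in the deeper set, 3968 in COTC021 and 2937 in COTC022. The trial fit called 2, against 129 with edgeR, 91 with DESeq2, 8 in the shallower and 0 in the deeper set (limma-voom, 829 at an unadjusted p under 0.05). With the GS-1 score as covariate, markers called lower by IRX1 fell to 1 leukocyte marker from 10 and 2 endothelial markers from 4, and cartilage markers called higher to 4 from 8 (5 with edgeR). By edgeR, 10 muscle markers were called lower, from 0. By IRX3, with the score as covariate, 0 leukocyte markers were called lower, from 8, and 7 cartilage markers, from 2, with 4 without the tumor with the highest score. Lists without that tumor, with edgeR and with covariates, and IRX4 without its top tumors, were chosen after seeing the data. No paired analysis was possible because each tumor comes from a different dog. Each group has 93 tumors, and no tumor was left out in turn.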

Other observations

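Several of the genes most like IRX1 came from the same stretch of chromosome 24. ZCCHC3, NOP56 and SNRPB, at ranks 1 to 3 after the members, and SOX12 (rho = 0.57), at rank 5 and named after its value was seen, lie within 2.03 Mb. Within 2 Mb of these genes on either side, 77 genes had a median rho of 0.13 with IRX1, and 28.6% reached 0.3. The other 284 genes of chromosome 24 had a median of 0.12, and over the whole chromosome 23.5% of 361 genes reached 0.3, so that the window stood little apart from its chromosome. The window also holds the genes by which it was chosen. With IRX2, IRX3 and IRX5, the median in this window was 0.07, 0.04 and 0.04.

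Genes of chromosome 34 had a median rho with IRX1 of 0.24 within 1 Mb of the cluster (14 genes) and 0.24 at 1 to 5 Mb (26 genes), against 0.07 at 5 to 20 Mb (70 genes) and -0.00 on other chromosomes (13285 genes, 9.33% of which reached 0.3). Around the chromosome 2 cluster, 13 genes within 1 Mb had a median of 0.12 with IRX3 and 0.07 with IRX5. Genes at 1 to 5 Mb had 0.08 with IRX3, and genes on other chromosomes had -0.00. The value of 0.12 was not particular to this place, since the 251 genes of chromosome 13 had a median of 0.15 with IRX3. Neighboring genes are not independent of each other, and no test was made.

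Among the genes most like IRX6, IHH was at rank 5 (rho = 0.45), besides PTCH1 and GLI2. For PTCH1 with IRX6, rho was 0.30 in the deeper and 0.54 in the shallower set of libraries, and that of GLI2 was 0.39 and 0.48.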
